A study of Homo sapiens with 6 samples.

Results

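Ribosome biogenesis and nucleolar genes encode the proteins that transcribe ribosomal RNA, modify and cut it, and assemble it with ribosomal proteins into the small (40S) and large (60S) subunits. A set of 48 such genes was taken by symbol, of which 42 had at least 1 probe set that named no other gene. All 42 also passed the filter on low signals, among 19775 genes with such a probe set and 11853 genes tested. The other members, NOP56, DKC1, BOP1, GNL3, PPAN and EBNA1BP2, were not analysed here. The members were listed by symbol, and each gene was read by its brightest probe set.

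Ribosome production starts in the nucleolus, where RNA polymerase I copies a long precursor RNA. Small nucleolar ribonucleoproteins (snoRNPs) guide its chemical modification, box C/D particles for 2'-O-methylation and box H/ACA particles for pseudouridylation. The small subunit (SSU) processome forms on the emerging precursor and leads to the pre-40S particle, while separate factors build the pre-60S particle. Growing cells, among them tumour cells, devote much of their transcription to this pathway, and the transcription factor MYC is known to activate many of its genes.

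Total RNA came from cells labelled HepG2, a human liver tumour line, taken 48 h after Lipofectamine transfection. One group of 3 received a negative control siRNA and the other group of 3 an siRNA against RNF43, a membrane ubiquitin ligase that restrains Wnt signalling. Both groups carried a transfected siRNA, so neither was untreated. From each sample 6 µg of RNA went to an Affymetrix HG-U133 Plus 2.0 array. The labels call the arrays of a group biological replicates but name no separate cultures. The p-values thus reflect only how far these arrays scatter, which may be technical. The antisense strands, which guide silencing, are shown because they define the groups, with the seed (bases 2 to 8) in capitals.
RNF43 siRNA antisense: aUAAUAGCuuucuguucugtt
control siRNA antisense: aCGUGACAcguucggagaatt

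Values were log2 signals, and array medians lay between 5.89 and 6.02. RNF43 went against its label, its signal being 7.63 ± 0.17 in the control group and 8.27 ± 0.12 in the group labelled RNF43 siRNA (SD, n = 3 each), a rise of 1.56-fold (0.64 in log2 with SE 0.14, adjusted p = 0.0098 in limma). With both arrays numbered 3 left out it no longer passed (0.48 in log2, adjusted p = 0.0537 in limma, alternatives spanning 0.00585 to 0.0537). Higher and lower below refer to the group labelled RNF43 siRNA as set against the control group. Whether the labels of the groups were exchanged was not tested, and an exchange would turn every direction given here. The cell label was not borne out by defining liver markers: of 9 read by a probe set, AFP alone passed the filter, at a mean of 6.71, and ALB had a mean of 4.21. Of 6 fibroblast markers, 4 passed the filter. Of these DCN and COL3A1 fell, where 11.1% of all tested genes fell, and LUM and COL1A1 did not pass the test. LUM, the brightest, had a mean of 13.26, and COL1A2 (5.01) and PDGFRB (4.04) stayed below the filter. The summed level of all 6, which rests mostly on LUM, was 13.79 to 13.82 on the control arrays and 13.48 to 13.62 on the others. Of 5 endothelial markers PECAM1 alone passed the filter, and their summed level was 7.43 to 7.57 on the control arrays and 7.6 to 7.9 on the others. Of 5 leukocyte markers 0 passed the filter. Summed levels overlapped between the groups for the liver and the leukocyte markers. The part of these shifts in marker level in the results below was not tested. In bulk RNA, fewer cells of a type and less RNA per cell cannot be told apart.

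Most ribosome biogenesis genes showed no change that passed the test. Of the 42 tested members, 5 fell and 2 rose, or 16.7% in all, where 22.6% of all 11853 tested genes passed (limma, adjusted p under 0.05). By direction, 11.1% of all genes fell and 11.5% rose. The members that fell were NPM3, NOLC1, NOP14, RRP12 and TAF1D, and those that rose were UTP4 and RRP1B. All of these changes were small, from 1.19-fold to 1.34-fold. The median log2 difference over the members was -0.05, with a range of -0.42 to 0.29, beside 0.0 for all tested genes and a range of -2.27 to 2.67. Without regard to sign, the median size was 0.11 for members and 0.19 for all tested genes. Among all genes with a mean log2 signal above 10, where 38 of the 42 members lay, 29.3% passed, and above 11, 12 and 13 the shares were 28.4%, 25.3% and 17.2%.

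**Figure D1:**
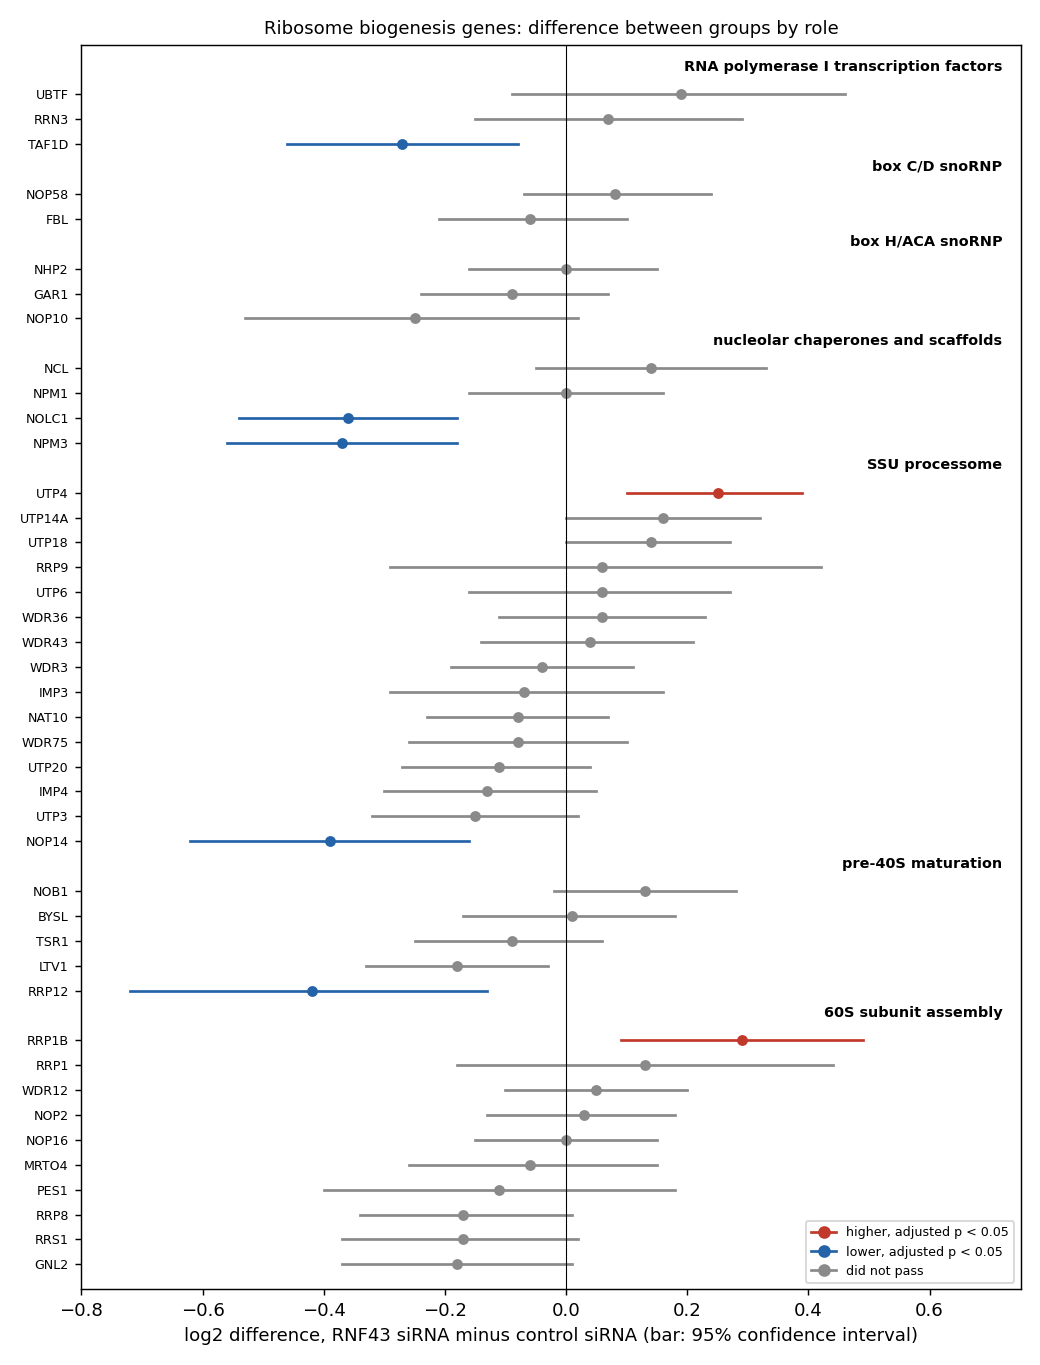
Log2 difference between 3 RNF43 siRNA and 3 control siRNA arrays (x axis) for each of the 42 tested members, ordered by role; points are estimates and bars their 95% confidence intervals. The 5 members that fell (blue) and the 2 that rose (red) stand in 5 of the 7 roles, and most grey intervals cross 0.

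On the brightest probe sets, precision was high enough to bound most of the rest. Among the 35 members that did not pass, the 95% confidence interval of the log2 difference lay within ±0.5, or 1.41-fold either way, for 34. That limit was set after the values were seen. The exception was NOP10, at -0.53 to 0.02. Dimmer probe sets of some of these members had wider intervals, as for WDR12 (-1.49 to -0.01). The groups did not overlap for 14 members (33.3%), 9 lower and 5 higher, against 38.9% of all tested genes, 19.8% lower and 19.1% higher. Leaving out 1 array at a time left 0 to 2 members higher and 2 to 4 lower. None was higher without control siRNA replicate 2, RNF43 siRNA replicate 1 or RNF43 siRNA replicate 2, and 1 without control siRNA replicate 1 or 3. Lower calls came to 2 without control siRNA replicate 1 or 2 and to 3 without RNF43 siRNA replicate 3. After quantile normalization 1 member rose and 5 fell. In both groups replicate 3 was most often the array farthest from its group mean, among members as among all tested genes. With RNF43 siRNA this held for 40.5% of members and 42.2% of all genes, and with control siRNA for 45.2% and 46.1%.

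RefSeq sequence of GRCh38.p14 was taken from 250 bases before to 50 bases after the gene's start. It was at hand for 42 of the 48 members, of which 37 were tested. The E-box CACGTG, the letters bound by MYC and related factors, stood in 18 of these 42 promoters (42.9%). Of all 27305 promoters of that length 7.43% held this E-box, and of those of tested genes 10.3%. It lay within 100 bases of the start in 16 of the 18. By role it was found in 9 of 15 SSU processome promoters, 5 of 11 for 60S assembly, 2 of 4 for pre-40S maturation and 1 each for box C/D (of 2) and box H/ACA (of 4), and in 0 of 3 for both the chaperones and the polymerase I factors. A match of letters is a description and not a binding site. Windows of 30 bases around the E-box nearest the start, for the 5 roles that had one, show how the neighbouring bases differ.
FBL, chr19:39846356-39846385, minus strand: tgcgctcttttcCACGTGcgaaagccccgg
NOP10, chr15:34343130-34343159, minus strand: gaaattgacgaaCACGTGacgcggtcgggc
WDR43, chr2:28894658-28894687, plus strand: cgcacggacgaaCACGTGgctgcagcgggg
BYSL, chr6:41921515-41921544, plus strand: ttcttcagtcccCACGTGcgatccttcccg
GNL2, chr1:37595917-37595946, minus strand: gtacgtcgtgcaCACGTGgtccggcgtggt

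None of the genes in these windows passed the test. Of the 17 tested members with an E-box, 1 rose (UTP4) and 1 fell (NOP14), where 11.5% of all tested genes rose and 11.1% fell. Other letters were searched on both strands, each promoter counted once per motif whether or not motifs overlapped. TCTCGCGA, known to be bound by BANP, stood in 11.9% of member promoters, 1.19% of all promoters and 2.38% of those of tested genes. Promoters were at hand for 4 of the 7 changed members, NPM3, NOP14, TAF1D and UTP4, and of these NOP14 and TAF1D held it. So few promoters say little about the changed members. The ETS letters CCGGAAGT stood in 11.9% of member promoters, 4.44% of all promoters and 8.94% of those of tested genes. For the palindromic NRF1 motif these shares were 7.14%, 1.36% and 2.38%, and for the YY1 letters AAGATGGC 2.38%, 3.03% and 5.59%. The promoters of UTP4 and NPM3, the members with the smallest p in each direction, are given whole, with matched letters in capitals.
UTP4, chr16:69132399-69132698, plus strand: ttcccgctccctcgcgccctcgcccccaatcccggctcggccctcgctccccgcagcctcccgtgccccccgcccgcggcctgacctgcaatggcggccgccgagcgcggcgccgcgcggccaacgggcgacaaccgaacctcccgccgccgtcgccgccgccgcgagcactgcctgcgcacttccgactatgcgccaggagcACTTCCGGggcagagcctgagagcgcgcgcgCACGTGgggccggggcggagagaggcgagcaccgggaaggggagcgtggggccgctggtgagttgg
NPM3, chr10:101783397-101783696, minus strand: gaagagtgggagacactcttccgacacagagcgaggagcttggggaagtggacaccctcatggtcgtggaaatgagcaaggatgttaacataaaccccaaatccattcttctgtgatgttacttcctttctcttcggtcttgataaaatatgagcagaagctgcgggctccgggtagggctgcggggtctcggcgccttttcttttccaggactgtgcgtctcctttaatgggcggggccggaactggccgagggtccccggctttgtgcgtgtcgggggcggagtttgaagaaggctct
In UTP4 the ETS letters begin at position -47 and the E-box at position -16, counted from 0 at the gene's first base. None of the 5 motifs stood in the NPM3 window.

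RNA polymerase I transcription factors were read for 3 members, and TAF1D, a subunit of the promoter selectivity factor SL1, was the 1 that fell. Of all tested genes 11.1% fell. TAF1D gave log2 signals of 11.38, 11.27 and 11.40 on the control arrays and 11.14, 10.92 and 11.18 on the RNF43 siRNA arrays. All 3 control values lay above the others. The fall was 1.20-fold (-0.27 in log2 with SE 0.09, adjusted p = 0.0464 in limma). UBTF, which opens the ribosomal DNA to the polymerase, had a log2 difference of 0.19 (95% confidence interval -0.09 to 0.46) and overlapping groups. RRN3, the factor that brings the polymerase to its promoter, had 0.07 (-0.15 to 0.29), and near-identical RRN3 copies in the genome make its reading uncertain. The TAF1D call was lost in 9 of 18 alternatives (adjusted p 0.00355 to 0.169), among them the removal of any 1 array other than RNF43 siRNA replicate 3.

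No snoRNP protein passed the test in the main setting. In the box C/D group 0 of 2 tested members passed in limma, and in the box H/ACA group 0 of 3, also at an unadjusted p under 0.05. Of all tested genes 22.6% passed, so counts of 0 in groups this small say little about the roles. NOP58, which holds the box C/D particle together, read 13.18, 13.15 and 13.13 on the control arrays and 13.25, 13.34 and 13.11 on the others, a log2 difference of 0.08 (SE 0.07, with adjusted p = 0.455 in limma). FBL, the methyltransferase fibrillarin, had a log2 difference of -0.06 (95% confidence interval -0.21 to 0.10). NHP2 and GAR1, structural proteins of the box H/ACA particle, had intervals of -0.16 to 0.15 and -0.24 to 0.07. For NOP10, the smallest protein of that particle, signals were 14.19, 14.24 and 14.06 with control siRNA and 14.20, 13.94 and 13.60 with RNF43 siRNA. The groups overlapped for NOP10, and RNF43 siRNA replicate 3 was the lowest array. Its log2 difference of -0.25 (SE 0.13, with adjusted p = 0.179 in limma) became -0.40 without RNF43 siRNA replicate 1 (adjusted p = 0.0246 in limma), 1 of the 2 alternatives in which it passed, and ranged from -0.40 to -0.10 over all alternatives (adjusted p 0.0169 to 0.501).

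Nucleolar chaperones and scaffolds split, with 2 of 4 lower and 2 that did not pass, where 11.1% of all tested genes fell. A group of 4 genes is too small to read that count as a trait of the role. NPM3, a histone chaperone of the nucleoplasmin family that binds NPM1, read 10.48, 10.61 and 10.40 on the control arrays and 10.12, 10.07 and 10.20 on the RNF43 siRNA arrays. The groups did not overlap. NPM3 fell 1.29-fold (-0.37 in log2 with SE 0.08, adjusted p = 0.01 in limma), and this call held in all 18 alternatives that refitted the comparison (adjusted p 0.00224 to 0.0497), although not at a threshold of 0.01, which no member passed. NOLC1, also called Nopp140, is a phosphoprotein that carries snoRNPs. Its signals were 12.91, 12.75 and 12.99 against 12.59, 12.40 and 12.59, with no overlap. NOLC1 fell 1.28-fold on its brightest probe set (-0.36 in log2 with SE 0.08, adjusted p = 0.0104 in limma) and kept its call in all but 1 of 18 alternatives, the fit without an intensity trend (adjusted p = 0.0503, range 0.000147 to 0.0503).

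NPM1 (nucleophosmin) and NCL (nucleolin), both abundant proteins of the nucleolus, did not pass. NPM1 read 14.77 ± 0.09 and 14.77 ± 0.11 (SD, n = 3 each), with a 95% confidence interval of -0.16 to 0.16 for the log2 difference, and 2 further NPM1 probe sets had differences of 0.06 and 0.08. Many processed NPM1 copies in the genome make these readings uncertain. NCL had a log2 difference of 0.14 (95% confidence interval -0.05 to 0.33), with RNF43 siRNA replicate 3 the highest array at 13.23.

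Of 15 SSU processome members, NOP14 fell, UTP4 rose and 13 did not pass. The share that passed was 13.3%, beside 22.6% of all tested genes. UTP4, also called cirhin, is a subunit of the UTP-A complex that first binds the precursor RNA. It read 12.39, 12.33 and 12.30 with control siRNA and 12.60, 12.63 and 12.52 with RNF43 siRNA, without overlap. This was a 1.19-fold rise (0.25 in log2 with SE 0.06, adjusted p = 0.0193 in limma). The UTP4 call was lost in 5 of 18 alternatives (adjusted p 0.00267 to 0.0801), among them those without control siRNA replicate 2, RNF43 siRNA replicate 1 or RNF43 siRNA replicate 2. NOP14, a subunit of the processome, read 10.26, 10.25 and 10.15 against 9.87, 10.00 and 9.61. Every RNF43 siRNA value lay below every control value, with replicate 3 the lowest. NOP14 fell 1.31-fold (-0.39 in log2 with SE 0.11, adjusted p = 0.0222 in limma), a call lost in 5 of 17 alternatives (0.00182 to 0.0778), among them those without control siRNA replicate 1 or 2 or RNF43 siRNA replicate 3.

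The other 13 SSU processome members had log2 differences between -0.15 and 0.16. UTP18 and UTP14A had log2 differences of 0.14 and 0.16 with groups that did not overlap, but did not pass (adjusted p = 0.134 and 0.136 in limma). UTP18 was even within groups, at 12.41 to 12.48 with control siRNA and 12.56 to 12.61 with RNF43 siRNA. UTP3 and UTP20 also had groups that did not overlap, with differences of -0.15 and -0.11. For UTP3 the nearest values of the groups both rounded to 11.44. Of all 15 SSU processome members 6 (40%) had groups that did not overlap, close to the 38.9% of all tested genes. NAT10, the acetyltransferase of small subunit RNA, had a difference of -0.08 (95% confidence interval -0.23 to 0.07). IMP3 and IMP4, partners in 1 complex, had -0.07 and -0.13. The WD-repeat proteins WDR3, WDR36, WDR43 and WDR75 lay between -0.08 and 0.06, and UTP6 and RRP9 each at 0.06. RRP9, the dimmest member at a mean of 7.66, had the widest error of the 42 (SE 0.16).

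Among 5 factors of pre-40S maturation, RRP12, which acts in export of the pre-ribosome, was lower, where 11.1% of all tested genes fell. Its signals were 8.83, 8.75 and 8.94 on the control arrays and 8.39, 8.65 and 8.21 on the RNF43 siRNA arrays, with replicate 3 again the lowest. RRP12 fell 1.34-fold (-0.42 in log2 with SE 0.13, adjusted p = 0.0408 in limma), the largest change of any member on its brightest probe set. The call was lost in 11 of 17 alternatives (adjusted p 0.0233 to 0.654), among them those without any 1 array other than RNF43 siRNA replicate 2. The difference became -0.21 with the mean of all 5 RRP12 probe sets, among them dim ones below the filter. It was -0.27 with both arrays numbered 3 left out. LTV1, needed for the final shape of the subunit's head, read 11.51, 11.51 and 11.40 against 11.30, 11.29 and 11.28. Its groups did not overlap, but its log2 difference of -0.18 did not pass (adjusted p = 0.0832 in limma). NOB1, the nuclease that makes the last cut of 18S RNA, had a difference of 0.13, BYSL 0.01 and TSR1 -0.09, and none of these passed.

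Of 10 factors of 60S assembly, RRP1B, a nucleolar partner of protein phosphatase 1, was the 1 that rose, where 11.5% of all tested genes rose. It read 12.02, 12.03 and 11.99 with control siRNA and 12.33, 12.49 and 12.10 with RNF43 siRNA. The groups did not overlap, and RNF43 siRNA replicate 3 stood nearest to the controls. RRP1B rose 1.22-fold on its brightest probe set (0.29 in log2 with SE 0.09, adjusted p = 0.0444 in limma). The call was lost in 9 of 18 alternatives and the direction turned in 1 more, the mean of its probe sets (log2 difference -0.02). Adjusted p ran from 0.00366 to 0.945, and the call was lost without any 1 array other than RNF43 siRNA replicate 3.

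PES1 and WDR12, partners of BOP1 in the PeBoW complex that processes large subunit RNA, had log2 differences of -0.11 and 0.05. NOP2, a methyltransferase of large subunit RNA, had 0.03 (95% confidence interval -0.13 to 0.18) and NOP16 an interval of -0.15 to 0.15. RRP8, another methyltransferase, read 10.26, 10.37 and 10.25 against 10.13, 10.17 and 10.07, without overlap, at a difference of -0.17 that did not pass (adjusted p = 0.158 in limma). RRS1, which helps to load the particle with 5S RNA, had -0.17 and the GTPase GNL2 -0.18. MRTO4 had -0.06 and RRP1 0.13. RRP1 signals with RNF43 siRNA ran from 8.38 on replicate 3 to 8.90 on replicate 2, around control values of 8.52 to 8.58.

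**Figure D2:**
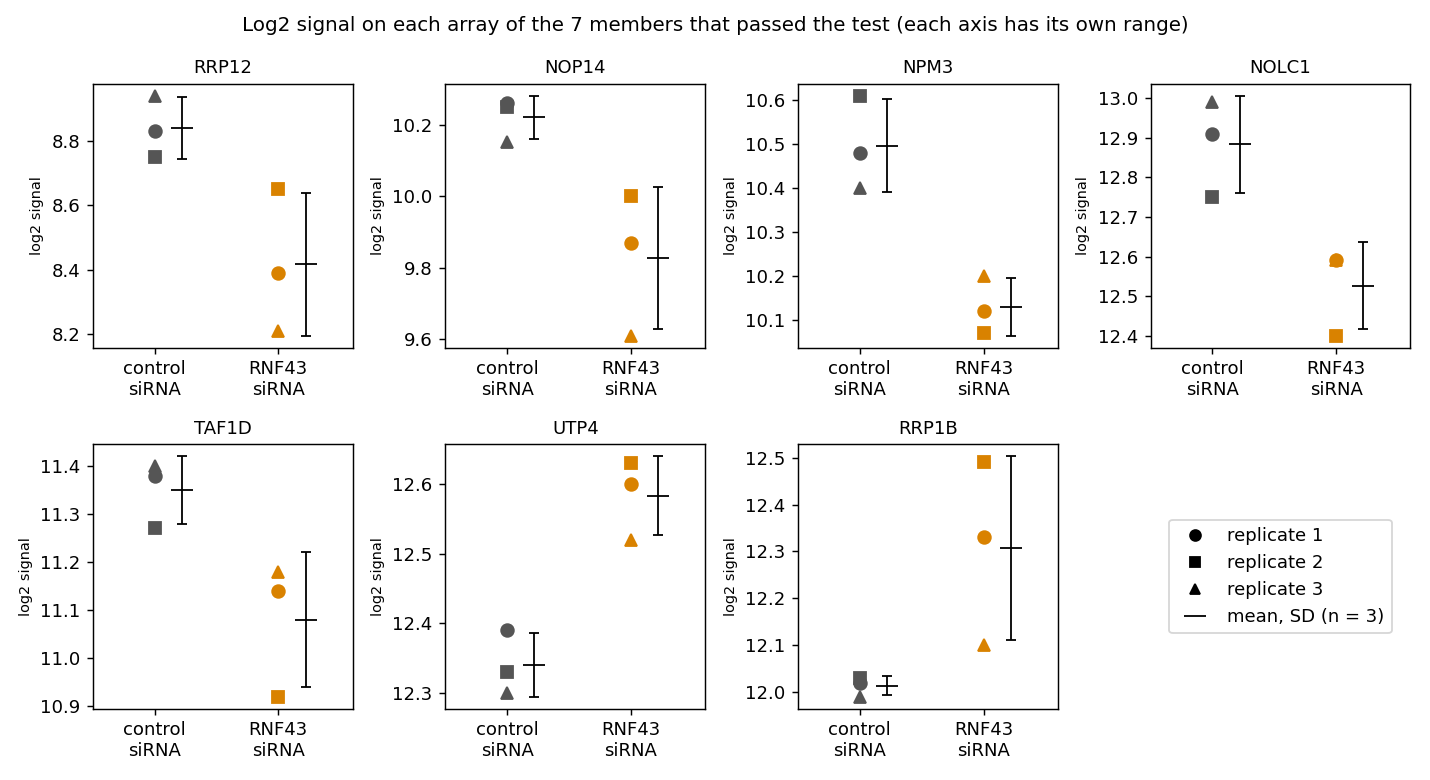
Log2 signal (y axis, each panel with its own range) on each of the 3 control siRNA and 3 RNF43 siRNA arrays for the 7 members that passed; bars give the mean and SD (n = 3). The groups do not overlap in any panel, and the gap is narrow for RRP1B, where replicate 3 with RNF43 siRNA read 12.10 beside control values of up to 12.03.

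**Figure D3:**
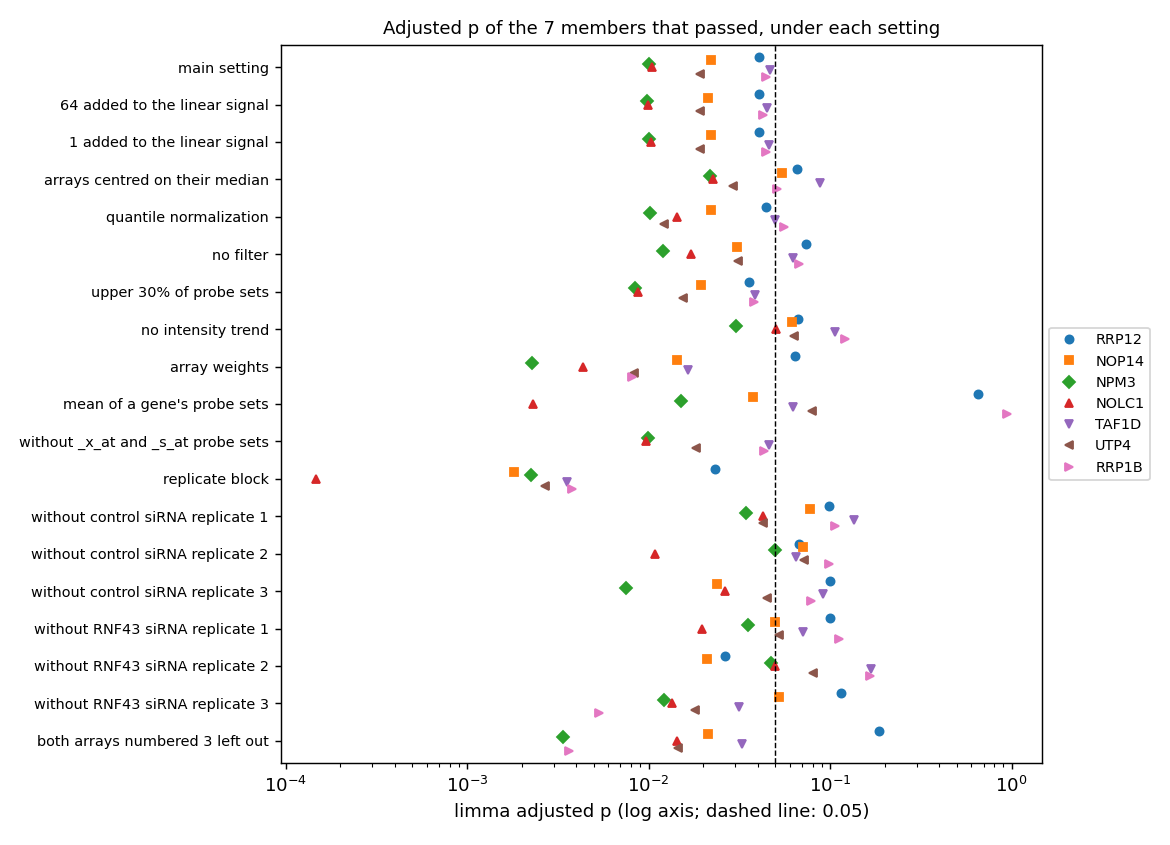
Limma adjusted p (x axis, log scale, dashed line at 0.05) of the 7 members that passed in the main setting and under up to 18 other settings (y axis). NPM3 stays left of the line throughout, NOLC1 in all but 1 setting, and RRP12, TAF1D and RRP1B cross it in 9 to 11.

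Other probe sets of the members gave a mixed check. Of the 42 members, 15 had a total of 22 further probe sets above the filter. Of these, 12 had a difference of the same sign as the brightest and 10 of the opposite sign. Some of the opposite signs rest on values near 0, as on the brightest NPM1 and NOP16 probe sets (both 0.0) and the second UBTF probe set (-0.01). In a limma fit over all 22660 probe sets above the filter, where 17.7% passed, 3 of the 22 passed, all lower. NOLC1 fell on each of its 3 probe sets, by 1.28-fold on the brightest, 1.74-fold on the second (-0.80 in log2 with SE 0.13, adjusted p = 0.00373 in limma) and 1.59-fold on the third (adjusted p = 0.0459 in limma), where the groups overlapped. The mean of the NOLC1 probe sets gave a log2 difference of -0.61. TSR1, a GTPase-like factor, did not pass on its 3 brighter probe sets but fell 1.35-fold on the fourth, where signals were 9.40, 9.46 and 9.51 against 9.01, 9.16 and 8.92 (-0.43 in log2, adjusted p = 0.0185 in limma). The second RRP1B probe set had a difference of -0.33 (adjusted p = 0.341 in limma), opposite to the brightest. For WDR12, at 0.05 on its brightest probe set, the second had -0.75 (adjusted p = 0.155 in limma) with overlapping groups. The third WDR12 probe set had -0.22 (0.551). The second UTP4 probe set had 0.14 (adjusted p = 0.266 in limma), and the next RRP12 probe set -0.17 (0.702). NPM3, NOP14 and TAF1D had 1 probe set each that named no other gene. Further TAF1D probe sets that named several genes were not read. In that fit 4 of the 7 brightest probe sets kept their call, since RRP1B (adjusted p = 0.0627 in limma), RRP12 (0.0597) and TAF1D did not pass.

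**Figure D4:**
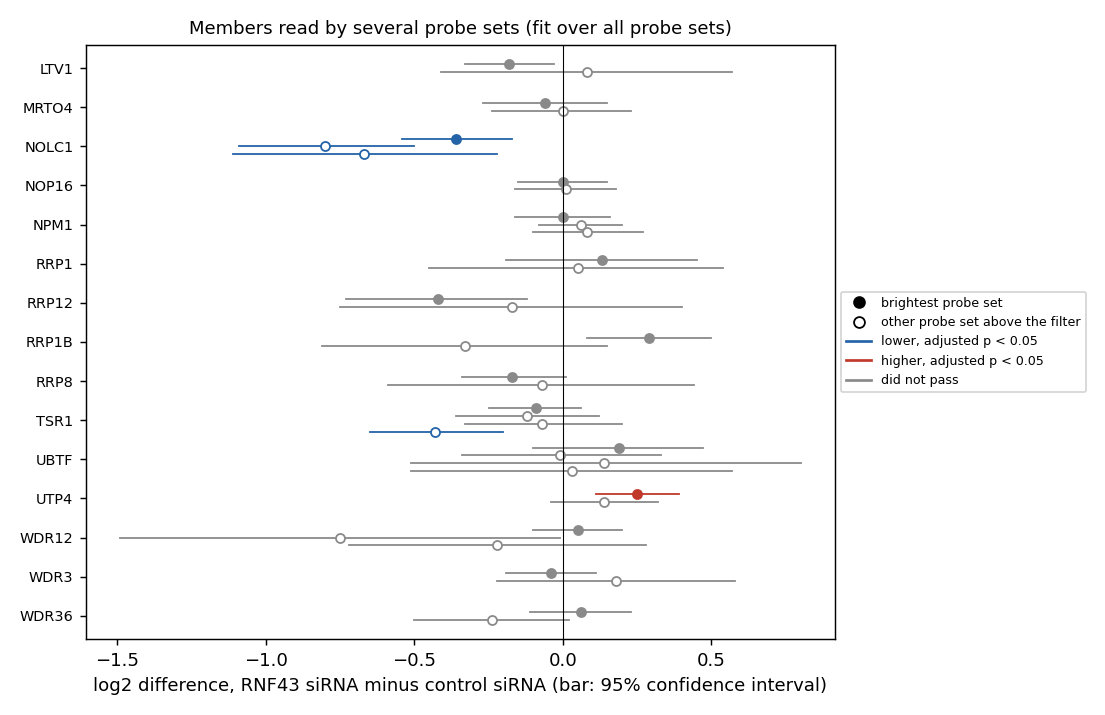
Log2 difference (x axis) with 95% confidence interval for each probe set above the filter of the 15 members that had more than 1, from a fit over all probe sets; filled points are the brightest probe sets. All 3 NOLC1 probe sets are lower, and the 2 of RRP1B point in opposite directions.

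Further genes of the pathway were taken by function, in 6 lists. Of 120 tested genes 10 fell and 5 rose, or 12.5% against 22.6% of all tested genes, and the median log2 difference was 0.0. Other factors of the SSU processome and pre-40S particle fell in 6 of 37 tested genes and rose in 0 (limma). Of all tested genes 11.1% fell and 11.5% rose. The 37 differences were positive for 16 genes and negative for 21. At an unadjusted p under 0.05 in limma were 10 of the 37 (27%), beside 34.8% of all tested genes. The lower count was 3 without control siRNA replicate 1, without RNF43 siRNA replicate 1 or without RNF43 siRNA replicate 2, and 3 also when no intensity trend was fitted or probe sets ending in _x_at or _s_at were left out. With RNF43 siRNA replicate 3 left out, 1 gene was higher. MPHOSPH10, which binds IMP3 and IMP4 in the processome, read 11.62 ± 0.18 against 11.01 ± 0.05 (SD, n = 3 each), with the lowest control value at 11.43 and the highest other at 11.06. It fell 1.53-fold (-0.62 in log2 with SE 0.09, adjusted p = 0.00106 in limma) and kept its call in all 18 alternatives, whereas its partners IMP3 and IMP4 did not pass. The difference between MPHOSPH10 and its partners was not tested. WDR46, a processome scaffold, fell 1.31-fold and also kept its call in all 18. BMS1, a GTPase of the processome, fell 1.23-fold, a call lost without RNF43 siRNA replicate 1 (adjusted p = 0.0631 in limma, alternatives spanning 0.0014 to 0.0631). The others that fell were RIOK2 (1.31-fold), NOL10 (1.27-fold) and NOL6 (1.36-fold), named here after their values were seen and not followed one by one across the settings. Over the 6 lists, leaving out 1 array left 3 to 5 genes higher and 3 to 10 lower. The higher count was 3 without control siRNA replicate 1 or RNF43 siRNA replicate 1 or 2. The lower count was 3 without RNF43 siRNA replicate 2, 5 when control siRNA replicate 1 was dropped and 6 when either control siRNA replicate 2 or RNF43 siRNA replicate 1 was.

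Other 60S assembly and export factors changed in 3 of 39 tested genes, or 7.69% beside 22.6% of all tested genes. NOL9, a kinase acting in the cutting of the spacer between large subunit RNAs, rose 1.27-fold. ZNF622, a late cytoplasmic factor, fell 1.17-fold, and NLE1, an assembly factor, fell 1.42-fold. The NOL9 call did not survive removal of control siRNA replicate 1 or of RNF43 siRNA replicate 1 or 2, and its log2 difference of 0.35 was 0.19 with the mean of its probe sets. That of ZNF622 did not survive removal of control siRNA replicate 1 or 2 or RNF43 siRNA replicate 2 or 3. That of NLE1 was lost without control siRNA replicate 2 or 3 or RNF43 siRNA replicate 1 or 2, and its difference of -0.51 was -0.29 when its probe sets were averaged and -0.06 without probe sets ending in _x_at or _s_at.

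Of 13 tested genes of the RNA exosome, which trims ribosomal RNA ends, 2 rose, 1 fell and 10 did not pass. The share that passed, 23.1%, was close to the 22.6% of all tested genes. At an unadjusted p under 0.05 in limma it was 7 of 13 (53.8%), beside 34.8% of all tested genes. The ring subunits EXOSC5 and EXOSC9 rose 1.37-fold (10.31, 10.19 and 10.04 against 10.67, 10.67 and 10.57) and 1.29-fold. Both kept their calls in every alternative that refitted them, while at a threshold of 0.01 EXOSC9 did not pass (adjusted p = 0.0106 in limma). DIS3, a catalytic subunit, fell 1.25-fold on its brightest probe set, but its log2 difference of -0.32 became 0.03 when its probe sets were averaged and 0.02 without those ending in _x_at or _s_at. It also failed without control siRNA replicate 2 or 3 or RNF43 siRNA replicate 1 or 2. Among 12 RNA polymerase I and SL1 genes POLR1F, a polymerase subunit, rose 1.28-fold, by 0.36 in log2, which was 0.18 and did not pass when its probe sets were averaged. PIH1D1 of the R2TP complex, which helps snoRNPs form, was the 1 of 9 assembly factors that passed, at 1.15-fold higher, and lost its call without any 1 array. RPP25L was the 1 of 10 RNase MRP and P genes that passed, at 1.29-fold lower, a call lost without any 1 array other than RNF43 siRNA replicate 3.

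**Figure D5:**
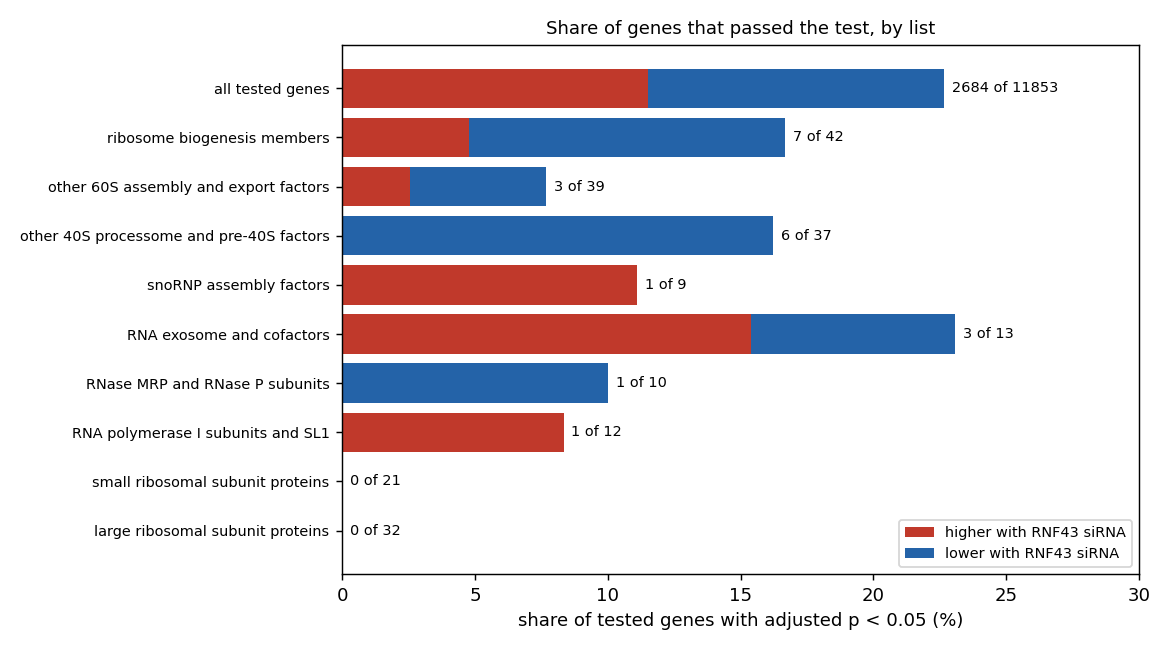
Share of tested genes that passed the test (x axis, percent) in the members, 8 lists of related genes and all tested genes, split into higher (red) and lower (blue), with the counts beside each bar. Except for the exosome list (3 of 13), each list lies below the 22.6% of all tested genes.

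Ribosomal proteins, the building blocks that these factors assemble, gave no call. Of 53 tested genes 0 passed in limma and 2 had an unadjusted p under 0.05, RPL36 (0.21 in log2, adjusted p = 0.0504 in limma) and RPL11 (-0.16, adjusted p = 0.109 in limma). Under other settings up to 3 passed. All 53 differences lay between -0.16 and 0.22. Of these genes 49 had a mean log2 signal above 14, and 5.02% of all tested genes that bright passed. Ribosomal protein genes have many near-identical copies, so these readings are uncertain. Of 4 snoRNA host genes with a probe set, 3 were tested and 0 passed in limma, also at an unadjusted p under 0.05. They were GAS5, SNHG17 and ZFAS1, with log2 differences of 0.59, 0.11 and 0.13 and an SE of 0.41 for GAS5.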

How the data were processed

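The authors deposited 1 table of log2 signals for 54613 probe sets on 6 arrays, and the submitters' processing notes name MAS5, a per-array summary; no version or target value was at hand. Base 2 was inferred from the numbers. Their linear trimmed means were all 497.03 to 497.23, the mark of prior scaling. Scaling of this kind would hide a shift common to all transcripts. Exact zeros were read as a floor. No 2 arrays were identical.

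Values were used as deposited. Probe sets naming 1 gene (41091) took current RefSeq symbols through gene IDs; 1801 named several genes and 11721 were unnamed here. Each gene was read by its brightest probe set, and tested where its mean exceeded 5.83, the cut for the upper 50%. The 2-group model used limma 3.58.1 (R 4.3.3) with trended eBayes; two-sided p-values took Benjamini-Hochberg adjustment over all tested genes, threshold 0.05.

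The members and lists were chosen with earlier results of these data known. Named genes are all members that passed, the member with the smallest p in a role where none passed, and up to 3 genes with the smallest p in each related list; promoters are those of the member with the smallest p in each direction. Other members, the windows around E-boxes, the motifs and the fit over all probe sets were chosen after values were seen. Alternatives covered added signal, normalization, filters, the variance model, probe set choice, a replicate block, the threshold and leaving out arrays.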

Additional observations from a re-analysis of the deposited data

How the results depend on the processing

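The counts of members that passed, 2 higher and 5 lower, rested on small margins. They were 1 and 2 with arrays centred on their median, 1 and 3 with no filter, 0 and 1 without an intensity trend, 0 and 3 when probe sets were averaged, and 0 and 0 at an adjusted p under 0.01. Quantile normalization gave 1 higher. The replicate block gave 8 lower members, and 33% of all tested genes passed with it, beside 22.6% in the main setting. The block was a model choice only. Deviations of arrays with the same number correlated at 0.162, 0.077 and 0.268, and those with different numbers at -0.211 to 0.086. The main setting did not pair arrays. Each RNF43 siRNA array correlated best with the control array of its own number. Control siRNA replicate 2 correlated at 0.086 with RNF43 siRNA replicate 1 and at 0.077 with RNF43 siRNA replicate 2. Whether arrays with the same number shared a batch was not tested. NOP10 passed with the replicate block (adjusted p = 0.0169 in limma). Leaving out each array gave 0 to 2 higher and 2 to 4 lower. The share of members that passed, 2.38% to 23.8%, lay below that of all genes in each of 19 settings. Of the 33 members not named by the rule, 16 changed sign in some alternative and 4 passed in some (RRS1, GNL2, TSR1 and LTV1, each lower).

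All genes that passed numbered 2684 (22.6%), 1587 with the mean of probe sets, 1370 at an adjusted p under 0.01, and 1741 to 2656 without 1 array, lowest without RNF43 siRNA replicate 2. More passed with the replicate block (3908, or 33%), array weights (3371, or 28.4%) and both arrays numbered 3 left out (2992, or 25.3%). Other biogenesis factors (5 higher, 10 lower) came to 9 higher with array weights, 12 and 21 with the replicate block, 4 lower without a trend, 5 lower without probe sets ending in _x_at or _s_at, 2 and 2 at an adjusted p under 0.01, and 3 to 5 higher and 3 to 10 lower without 1 array. Ribosomal proteins that passed, 0 in the main setting, were 2 with quantile normalization, 1 with the upper 30% of probe sets, 1 with array weights, 3 with the mean of probe sets, 2 without probe sets ending in _x_at or _s_at, 1 with the replicate block and 0 to 2 without 1 array. RNF43's log2 difference of 0.64 was 0.48 with both arrays numbered 3 left out and no longer passed. The directions of RRP1B (-0.02 with the mean of probe sets) and DIS3 (0.03 with that mean, 0.02 without probe sets ending in _x_at or _s_at) turned. Fewer genes were tested without probe sets ending in _x_at or _s_at, and fewer arrays were fitted in the leave-out settings. What caused the changes between settings was not tested.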
